A study of Homo sapiens with 6 samples.

Results

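The ERBB receptors and the EGF-family ligands were followed across 6 one-colour Agilent arrays of AGS cells, a human gastric adenocarcinoma line. The 10 genes, of 22438 with a symbol on the array, were EGFR, ERBB2, ERBB3 and ERBB4 among the receptors and EGF, TGFA, AREG, EREG, HBEGF and BTC among the ligands. They were chosen by name, and 17 of the 58201 gene probes carried a transcript accession of one of them. RNA was taken 48 h after transfection from 3 samples given a control siRNA (si-control) and 3 given an siRNA against C1GALT1 (si-C1GALT1-3). All samples were of the same unmodified line, grown in serum-containing medium, and only this siRNA against C1GALT1 was on the arrays. C1GALT1 encodes the galactosyltransferase that extends the first sugar of mucin-type O-glycans into the core 1 structure. The comparison asked how its knockdown affected the transcripts of this receptor family.

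ERBB receptors are tyrosine kinases that pair on ligand binding and signal through adaptors to RAS and ERK and to PI3K and AKT. The ligands are made as membrane-bound precursors and are shed by metalloproteases of the ADAM family. ERK in turn drives transcription of genes such as phosphatases, Sprouty proteins, ETS factors and several of the ligands themselves, and the pathway is often active in gastric epithelial cancer cells.

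The share of gene spots well above background was between 66.2% and 72.7% on the 6 arrays, and no spot was saturated. On si-control replicate 2, a rectangle of 9712 gene spots was dim, with 36.5% of its spots above background against 71.9% outside, and its spots were left out on that array. It held 1 of the 17 probes, a second probe of ERBB4. Of the 5 epithelial markers, all were above background on every array, EPCAM at log2 signals from 15.44 to 15.88. Among markers of other cell types, the brightest probes of 4 of 4 leukocyte, 2 of 4 fibroblast and 2 of 3 endothelial genes were above background on every array used, while COL1A2 was on none. None of these 16 markers passed the test described next. All 4 fibroblast and 3 endothelial markers were fitted lower with si-C1GALT1-3, with log2 fold changes from -1.03 to -0.05. The groups did not overlap for PDGFRB at -0.81 (SE 0.189, adjusted p = 0.207, limma) and VWF at -1.03 (SE 0.288, adjusted p = 0.257, limma), each without si-control replicate 2, whose spot was in the rectangle. The share of other cells in the results was not tested. The arrays measured bulk RNA, so fewer cells of a kind and less RNA per cell cannot be told apart.

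The targeted gene was described first. C1GALT1 gave log2 quantile-normalized signals of 12.22, 13.03 and 12.62 in si-control replicates 1 to 3 and of 11.76, 11.98 and 11.13 in si-C1GALT1-3 replicates 1 to 3. Every si-C1GALT1-3 sample lay below every si-control sample. The log2 fold change was -1.00 (SE 0.31), with an adjusted p of 0.265 by limma, and it missed the threshold used throughout, an unadjusted p under 0.01 together with a change of at least 2-fold. By that threshold 1538 of 58195 probes were called, 961 higher and 577 lower. Only 49 probes had an adjusted p under 0.05, the smallest at 0.0499, and none of the 10 genes was among them. Nothing states that the replicates came from separate cultures, so the p-values measure the spread between these samples, which may be technical.

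Of the 10 genes, EGFR fell by its brightest probe, the probe that stood for each gene, and the other 9 did not pass the threshold. That is 1 of 10 lower, against 1.33% lower over the brightest probes of all 22438 genes and 1.38% lower among the 16857 of them above background on every array. Among the 8 members above background on every array, all had a lower fitted mean with si-C1GALT1-3 and their median log2 fold change was -0.92. Over all 10 it was -0.69, with 8 fitted lower. Over all genes the median was 0.02 and 47.6% were fitted lower. For the 16857 genes above background on every array these were 0.03 and 46.6%. Samples of the groups did not overlap for 5 members, EGFR, TGFA, AREG, EREG and BTC, each lower, against 11.2% of all genes and 12.3% of those above background on every array. EGF and ERBB4 were not above background on every array.

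**Figure D1:**
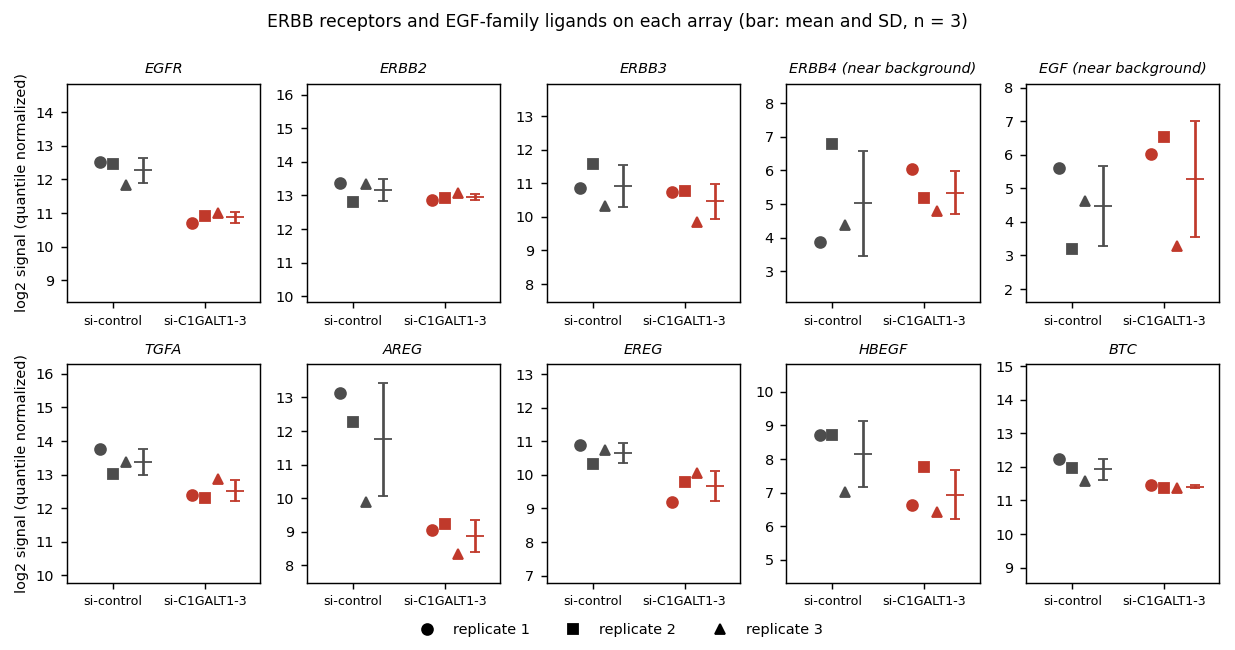
Log2 quantile-normalized signal (y axis, on the same span in every panel) of the brightest probe of each gene in the 3 si-control samples (grey) and the 3 si-C1GALT1-3 samples (red), with symbols for the replicate and bars for mean and SD. EGFR, TGFA, AREG, EREG and BTC show no overlap, AREG in si-control spreads from 9.88 to 13.13, and EGF and ERBB4 lie near background.

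The upstream sequences of EGFR, the receptor that fell, and of AREG and EREG, neighbouring ligand genes, are shown because the groups did not overlap for any of these 3 transcripts while their promoters differ in the elements searched for. Each is the 250 bases before the annotated start of the gene on the + strand in RefSeq, build GRCh38.p14, at chr7:55018767-55019016 for EGFR, chr4:74444886-74445135 for AREG and chr4:74364895-74365144 for EREG. Capitals mark exact matches on either strand to a cyclic AMP response element (TGACGTCA), an AP-1 site (TGANTCA), a GC box (GGGCGG) or a TATA box (TATAAA).
EGFR: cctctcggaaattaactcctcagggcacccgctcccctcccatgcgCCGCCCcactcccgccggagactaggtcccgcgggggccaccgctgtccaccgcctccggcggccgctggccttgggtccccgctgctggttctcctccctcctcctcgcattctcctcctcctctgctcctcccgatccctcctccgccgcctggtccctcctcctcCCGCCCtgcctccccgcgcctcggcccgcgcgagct
AREG: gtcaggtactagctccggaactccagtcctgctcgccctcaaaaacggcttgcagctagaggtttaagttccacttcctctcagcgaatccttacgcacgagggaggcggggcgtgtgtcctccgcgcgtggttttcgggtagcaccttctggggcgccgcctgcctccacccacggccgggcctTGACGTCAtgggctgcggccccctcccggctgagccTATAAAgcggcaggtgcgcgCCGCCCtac
EREG: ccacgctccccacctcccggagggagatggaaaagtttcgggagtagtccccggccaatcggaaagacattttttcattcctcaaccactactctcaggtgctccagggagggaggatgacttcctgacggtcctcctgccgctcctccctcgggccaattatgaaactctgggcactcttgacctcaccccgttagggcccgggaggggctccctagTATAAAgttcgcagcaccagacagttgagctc

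The AREG window held a cyclic AMP response element that began 65 bases before the start, a TATA box 29 bases before it and a GC box 9 bases before it. The EREG window held a TATA box 32 bases before the start and none of the other elements. The EGFR window held GC boxes at 204 and 36 bases before the start and no TATA box, with a GC content of 73.6% against a median of 58% over all windows. Of 35116 RefSeq windows of this length, 1.65% held the cyclic AMP response element, 6.57% the AP-1 site, 42.6% the GC box and 10.7% the TATA box. These are matches of letters and say nothing of binding by a factor.

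EGFR, the receptor for EGF, TGFA and AREG, had log2 signals of 12.51, 12.47 and 11.84 in si-control and of 10.70, 10.92 and 11.01 in si-C1GALT1-3. The si-control samples were all higher, with replicate 3 the lowest of them. EGFR fell by 1.40 on the log2 scale (SE 0.229), a fold of 2.64, with an adjusted p of 0.112 by limma. This probe is annotated to a shortened, secreted-type transcript variant. A second probe, annotated to another short variant, read 7.71, 7.53 and 7.11 in si-control and 5.78, 6.16 and 5.95 in si-C1GALT1-3. It fell by 1.49 (SE 0.208, adjusted p = 0.0918, limma). The third probe, annotated to the full-length receptor, read 10.77, 11.31 and 10.35 in si-control against 9.29, 9.94 and 9.83 in si-C1GALT1-3. Its groups did not overlap either, but with a log2 fold change of -1.12 (adjusted p = 0.226) it missed the threshold on the p. Over probes, 3 of the 17 were called lower, both short-variant probes of EGFR and 1 of AREG, against 0.991% of all probes.

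**Figure D2:**
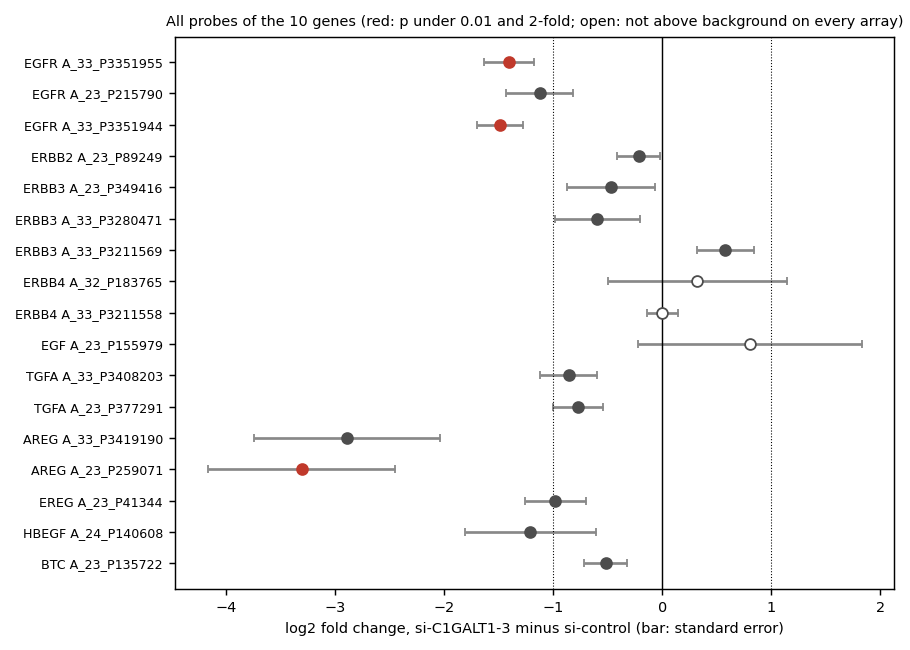
Log2 fold change of si-C1GALT1-3 over si-control (x axis, bars for the standard error, 3 samples a group) for each of the 17 probes, with dotted lines at 2-fold. The 3 EGFR probes lie between -1.49 and -1.12, the AREG probes at -2.89 and -3.31, and the ERBB3 probes on both sides of 0.

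ERBB2, the receptor without a ligand of its own, was printed as 10 spots on each array, and their SD within an array was between 0.0638 and 0.236 log2 units. On si-C1GALT1-3 replicate 2, 8 of them were used. Its log2 signals were 13.36, 12.80 and 13.35 in si-control and 12.88, 12.92 and 13.06 in si-C1GALT1-3. The groups overlapped, since si-control replicate 2 was the lowest of the 6 samples. The log2 fold change of -0.21 (SE 0.198, adjusted p = 0.688) was within the spread between replicates.

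ERBB3, a receptor with little kinase activity of its own that pairs with ERBB2, read 10.87, 11.57 and 10.34 in si-control and 10.75, 10.77 and 9.86 in si-C1GALT1-3. The groups overlapped, and the log2 fold change was -0.47 (SE 0.406, adjusted p = 0.669). A second probe was similar, at -0.59 (SE 0.389, adjusted p = 0.565). The third, annotated to the short secreted variant of ERBB3, read 7.27, 6.86 and 7.44 in si-control and 8.15, 7.37 and 7.78 in si-C1GALT1-3, a log2 fold change of 0.58 (SE 0.262, adjusted p = 0.407). The probes of ERBB3 therefore had fitted differences of opposite sign, and none passed the threshold.

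ERBB4, a receptor for the neuregulins and BTC, read 3.88, 6.80 and 4.39 in si-control and 6.05, 5.18 and 4.80 in si-C1GALT1-3. Only 1 of 3 samples was above background in each group, and its second probe was above background in none. EGF, the founding ligand, read 5.60, 3.20 and 4.63 in si-control and 6.01, 6.53 and 3.29 in si-C1GALT1-3, above background in 1 of 3 and 2 of 3 samples. No fold is given for either gene, and a change was not detectable at these signals.

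AREG, amphiregulin, a ligand of EGFR, had the widest difference of the 10 genes and the widest spread. Its log2 signals were 13.13, 12.27 and 9.88 in si-control and 9.05, 9.22 and 8.34 in si-C1GALT1-3. Replicate 3 was the lowest of both groups, and si-control replicate 3 stood nearer to the si-C1GALT1-3 samples than to the other si-control samples. The log2 fold change was -2.89 (SE 0.85, adjusted p = 0.247, limma), past 2-fold but short of the p threshold. The second AREG probe read 12.98, 12.18 and 9.74 against 8.68, 8.53 and 7.77, and fell by 3.31 (SE 0.857, adjusted p = 0.208, limma). The call of the second probe was lost when any sample other than si-control replicate 3 was left out, with log2 fold changes from -3.49 to -2.65. Without si-control replicate 3 the first probe had a log2 fold change of -3.79, which passed the threshold. With the slide as a block, the adjusted p was 0.204 (limma) at the same fold change, and it passed too.

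TGFA, the ligand most like EGF, read 13.77, 13.01 and 13.37 in si-control and 12.41, 12.29 and 12.88 in si-C1GALT1-3. Every si-C1GALT1-3 sample was lower, by a narrow margin between the nearest samples. The log2 fold change was -0.86 (SE 0.263, adjusted p = 0.261, limma), and the second probe gave -0.77 (SE 0.227, adjusted p = 0.247). TGFA and EREG stood in a list of cell division genes that the study drew from these same arrays, so their direction is not independent evidence.

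EREG, epiregulin, a ligand of EGFR and ERBB4, read 10.89, 10.33 and 10.73 in si-control and 9.18, 9.79 and 10.05 in si-C1GALT1-3. The groups did not overlap, and unlike AREG it was not low in si-control replicate 3. The log2 fold change was -0.98 (SE 0.281, adjusted p = 0.24, limma). BTC, betacellulin, a further ligand of both receptors, read 12.22, 11.97 and 11.58 in si-control and 11.46, 11.38 and 11.38 in si-C1GALT1-3. Its si-C1GALT1-3 samples lay closely together and below the si-control samples, with a log2 fold change of -0.52 (SE 0.194, adjusted p = 0.331). HBEGF, a ligand of EGFR and ERBB4 that binds heparin, read 8.72, 8.72 and 7.02 in si-control and 6.64, 7.77 and 6.42 in si-C1GALT1-3. Its groups overlapped, with si-control replicate 3 below si-C1GALT1-3 replicate 2, and the log2 fold change was -1.21 (SE 0.6, adjusted p = 0.449).

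Samples with the same replicate number shared a slide by the barcodes in the file headers, with si-control in one column of the slide and si-C1GALT1-3 in the next, so slide column and siRNA cannot be told apart. Within the slides of replicates 1, 2 and 3, si-C1GALT1-3 differed from si-control by -1.82, -1.56 and -0.83 for EGFR and by -4.08, -3.04 and -1.55 for AREG, on the log2 scale. Both were lower on each slide, and the difference was smallest on the slide of replicate 3. ERBB2 was lower on slides 1 and 3, at -0.48 and -0.29, and higher on slide 2, at 0.13. Without both samples of slide 1 the log2 fold change of EGFR was -1.20, and without those of slide 2 it was -1.33, both short of the threshold.

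**Figure D3:**
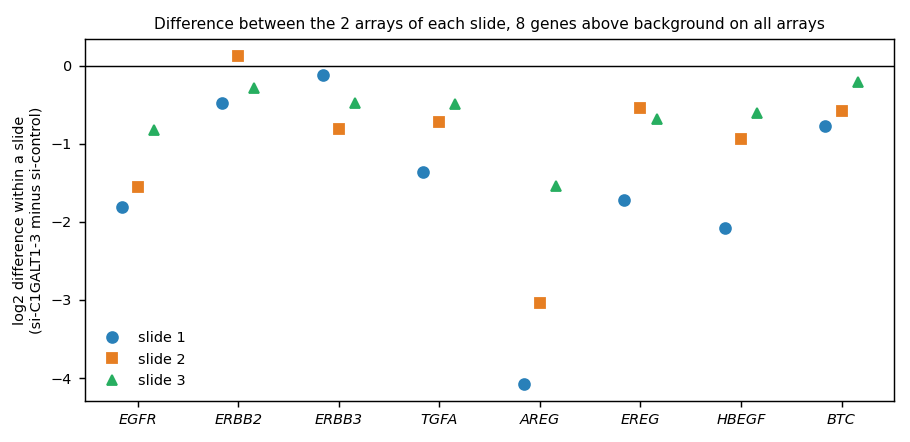
Log2 difference between the si-C1GALT1-3 and the si-control sample of each slide (y axis) for the 8 genes above background on every array, with 1 symbol for each slide. Apart from ERBB2 on slide 2, at 0.13, every difference lies below 0, and AREG differs most on slide 1, at -4.08.

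Replicate 3 of si-control stood apart for some of these genes and not for others. Relative to the mean of si-control replicates 1 and 2, AREG was lower by a log2 difference of -2.81 and HBEGF by -1.70, while EREG differed by 0.12 and TGFA by -0.02. ERBB3 differed by -0.88, EGFR by -0.65, BTC by -0.51 and ERBB2 by 0.27. Some ERK output genes were low in the same sample, FOS at -2.68, EGR1 at -2.14, DUSP6 at -2.02 and SPRY4 at -1.17. ERRFI1, listed with the receptor brakes, was at -1.39. CCND1 at 1.14, DUSP4 at 0.34 and MYC at 0.24 were higher in it. SPRED2 was at 1.72, but read 11.83, 8.91 and 12.09 in si-control, where replicate 2 was the one that stood apart. All these genes were named after their values were seen. Of the genes above background on every array, 3.19% were lower in this sample by at least 1 log2 unit, as were 2 of 5 ligands and 4 of 15 ERK output genes. In si-C1GALT1-3 replicate 3, relative to replicates 1 and 2 of its group, FOS was at -1.42, EGR1 at -1.55, ERRFI1 at -0.79 and DUSP6 at -0.41. There 2.36% of genes, 0 of 5 ligands and 2 of 15 ERK output genes were lower by at least 1 log2 unit. The part of the state of si-control replicate 3 in the results was not tested.

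**Figure D4:**
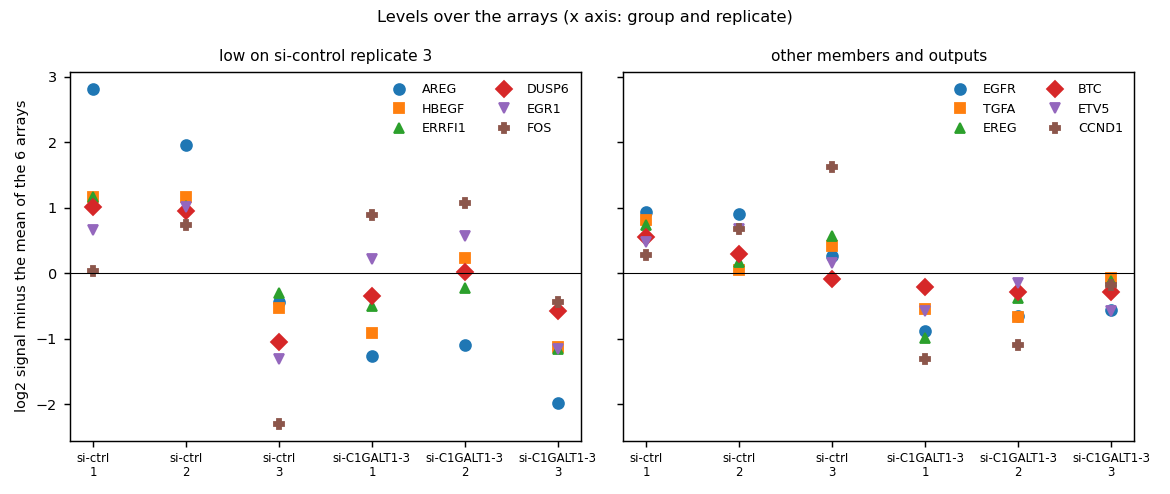
Log2 signal minus the mean of the 6 arrays (y axis) for each si-control (si-ctrl) and si-C1GALT1-3 sample (x axis), in genes low in si-control replicate 3 (left) and in other members and outputs (right). AREG is high only in si-control replicates 1 and 2, FOS and EGR1 are low in replicate 3 of both groups, and CCND1 is highest in si-control replicate 3.

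The rest of the pathway was read from lists of its named genes. Of 65 genes in these lists, 1 was called lower and none higher, against 3.41% called in either direction over all genes. At an unadjusted p under 0.05, 12 of the 65 passed, against 3732 of 22438 over all genes. Among the other ERBB ligands 0 of 5 were called. NRG1, a ligand of ERBB3 and ERBB4, was above background on every array at 13.03, 11.09 and 13.78 in si-control and 11.48, 11.35 and 13.31 in si-C1GALT1-3, high in replicate 3 of both groups. Its log2 fold change was -0.59 (SE 0.861), and -1.36 (SE 0.701, adjusted p = 0.475, limma) with a wider margin around the dim rectangle, which left out the spot of si-control replicate 2. A second NRG1 probe, in the rectangle on si-control replicate 2, read 10.89 and 12.19 in si-control replicates 1 and 3. In si-C1GALT1-3 it read 9.31, 9.40 and 11.46, with overlap and a log2 fold change of -1.49 (SE 0.832, adjusted p = 0.513, limma). NRG3 was the lowest of the list by the fit of its brightest probe. That probe read 6.83 and 6.75 in si-control replicates 1 and 3 and 4.64, 5.90 and 6.23 in si-C1GALT1-3. It was above background in 2 of 2 and 2 of 3 samples. NRG2, the highest by its fit, was above background in none of the 6 samples, and no fold is given for NRG2 or NRG3.

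Among the 8 genes of ligand shedding, proteases and their partners, none was called and the median log2 fold change was 0.04. ADAM17, the main sheddase of AREG and TGFA, had a log2 fold change of 0.00 (SE 0.235) and ADAM10, the main sheddase of EGF and BTC, one of 0.08 (SE 0.176). ADAM15 was the lowest at -0.49 (SE 0.14, adjusted p = 0.239). Its second probe gave -0.70 (SE 0.146, adjusted p = 0.152, limma), short of 2-fold, and the groups overlapped for neither probe. The highest was FRMD8, a partner of the iRhom proteins, at 1.27 (SE 0.82), with a lone low value of 7.59 in si-control replicate 2. With the wider margin, which left that spot out too, its log2 fold change was 0.32. The second FRMD8 probe read 7.47, 8.55 and 9.15 in si-control and 9.30, 9.33 and 9.75 in si-C1GALT1-3, without overlap and with replicate 1 the low si-control sample. Its log2 fold change was 1.07 (SE 0.442, adjusted p = 0.371, limma).

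Among the 10 receptor brakes none was called and the median was 0.05. ERRFI1, an inhibitor that binds the EGFR kinase, read 13.89, 13.75 and 12.43 in si-control and 12.23, 12.50 and 11.57 in si-C1GALT1-3. The groups overlapped, with si-control replicate 3 below si-C1GALT1-3 replicate 2. The log2 fold change was -1.26 (SE 0.467, adjusted p = 0.329), which with the slide as a block passed the threshold (adjusted p = 0.187, limma). CBLB, a ubiquitin ligase, was the highest at 0.62 (SE 0.184, adjusted p = 0.253).

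Of 26 adaptors and transducers, the proteins that carry the signal from the receptor, none was called and the median was 0.12. SHC1, an adaptor of the RAS branch, was the highest at 0.63 (SE 0.306, adjusted p = 0.435). MAPK3, which encodes an ERK kinase, had a log2 fold change of 0.57 (SE 0.219, adjusted p = 0.34).

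The 16 ERK output genes had a median log2 fold change of -0.64, and 12 of them were fitted lower. CCND1, cyclin D1, which drives entry into the cell cycle, was called. It read 12.91, 13.30 and 14.24 in si-control and 11.31, 11.54 and 12.44 in si-C1GALT1-3, high in replicate 3 of both groups and without overlap. It fell by 1.72 (SE 0.454, adjusted p = 0.213, limma), close to the threshold. CCND1 was in the study's lists of mitotic cell cycle and checkpoint genes, also drawn from these arrays. Its call was lost without si-control replicate 2 or 3 or si-C1GALT1-3 replicate 1 or 2, at log2 fold changes from -1.81 to -1.33. ETV4, an ETS factor, read 12.64, 12.99 and 11.97 against 11.23, 11.77 and 10.75, a log2 fold change of -1.28 (SE 0.37, adjusted p = 0.241) that passed with the slide as a block (adjusted p = 0.18, limma). ETV5 had -0.87 (SE 0.209, adjusted p = 0.189), short of 2-fold, and DUSP4, an ERK phosphatase, -0.73 (adjusted p = 0.235). In the other direction lay FOS at 1.02 (SE 0.871, adjusted p = 0.665), MYC at 0.37 (adjusted p = 0.418) and SPRED2 at 1.09, the last with a low value of 8.91 in si-control replicate 2 and a log2 fold change of 0.07 with the wider margin. EGR1, an early gene like FOS, was at -0.24 (SE 0.755, adjusted p = 0.943).

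**Figure D5:**
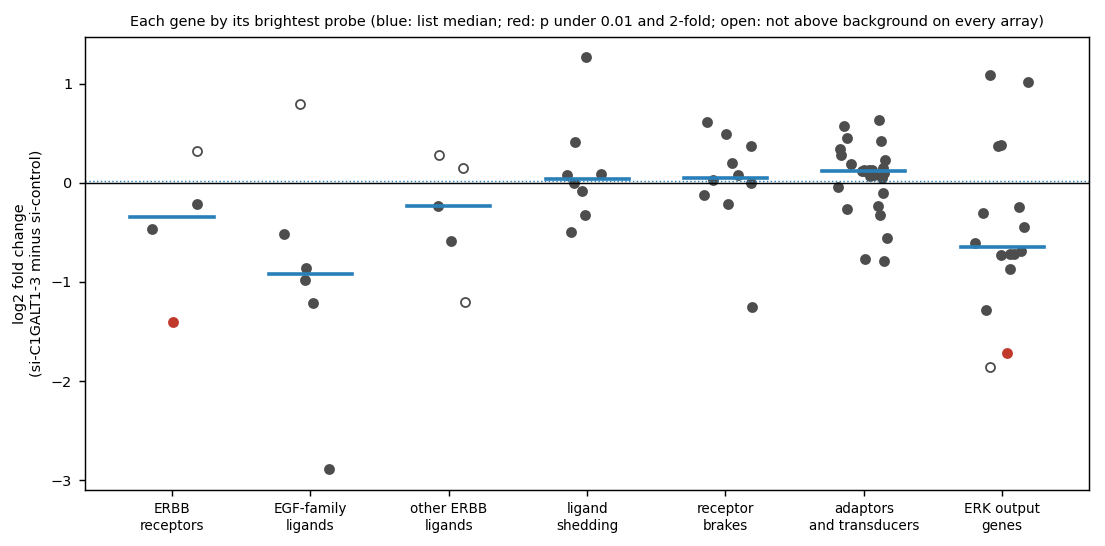
Log2 fold change (y axis) of each gene by its brightest probe in the receptor, ligand and pathway lists (x axis), with blue bars for list medians, a dotted line for the median of all genes and red points for genes past the threshold. Medians are -0.92 for the EGF-family ligands and -0.64 for the ERK output genes, and between 0.04 and 0.12 for shedding, brakes and transducers.

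AREG had the largest fitted difference, so genes with the most similar profile were sought among 19698 probes, by the root mean square difference of the 6 log2 signals after each probe's own mean was subtracted. The nearest were PHLDB2, PAQR5, PYROXD1, ITGA2 and FLJ43315, at differences from 0.65 to 0.72. PHLDB2, a microtubule and cortex protein, read 10.61, 9.95 and 9.39 in si-control and 7.34, 7.59 and 6.82 in si-C1GALT1-3, a log2 fold change of -2.73. ITGA2, the alpha subunit of a collagen-binding integrin, read 12.29, 12.24 and 11.05 against 9.90, 10.18 and 9.22, a log2 fold change of -2.09. Both had a smaller drop in si-control replicate 3 than AREG. PAQR5 had a log2 fold change of -1.99 and FLJ43315 one of -1.66. The search used the group difference itself, so these values are a description and no test is given. The probe of PYROXD1 was above background in all si-control and in no si-C1GALT1-3 samples, so no fold is given for it.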

How the data were processed

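Total RNA of 3 si-control and 3 si-C1GALT1-3 samples was labelled with 1 dye and hybridised to Agilent arrays of 62976 spots. The deposited scanner files hold intensity values that, per the submitters' processing notes, the authors extracted with Agilent Feature Extraction 10.5.1.1. A deposited series table equalled the background-subtracted intensity column within 4.8e-09, linear and uncentred, with gene-spot medians of 292, 151, 154, 261, 261 and 176 for si-control 1 to 3 and si-C1GALT1-3 1 to 3. It served as an alternative.

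Processed signals were taken without 2075 control spots, outlier spots (100 to 424 per array) and, on si-control replicate 2, the spots of rows 113 to 288 and columns 59 to 115. Log2 values of the deposited intensities were quantile-normalized, spots of a probe averaged, and groups compared with limma 3.58.1 in R 4.3.3 over 58195 probes, with Benjamini-Hochberg adjustment. A call needed p under 0.01 and a 2-fold change. A gene was represented by its probe with the highest mean. The number of arrays limits the precision. Scripts were tested on simulated data.

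Names came from RefSeq, by which 31104 probes had a symbol and 27097 had none. RefSeq's assembly, GRCh38.p14, differs from that of the files, so no probe position is given. Of the 10 members, 9 had a promoter window, and ERBB3 is named only.

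Members and lists were chosen with earlier results of these data known. Named were all members, C1GALT1, called genes of each pathway list or else its largest rise and fall, and the 5 genes most like the member of largest difference. Others were named after their values were seen. Some results under this rule are not reported here.

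Deviations of same-numbered samples, which share a slide, correlated at r = 0.198, 0.215 and 0.329 across 48794 probes, so the slide was used as a block in an alternative. Other alternatives were 75th-percentile scaling, no normalization, the region kept or widened by 10 rows and 5 columns, dim probes left out, a trended robust prior, the methods' t-test, outlier spots kept, normexp (offset 50, on median signals because mean signals were not used here), the table with a floor of 10, the median over probes, and each sample or slide left out.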

Additional observations from a re-analysis of the deposited data

How the results depend on the processing

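The main count was 1 of 10 members called. It was 2 with 75th-percentile scaling, the region kept, dim probes left out, normexp, the slide as a replicate block, or any probe counted, and 0 with no normalization between arrays or the median over probes. Leaving out samples or slides gave 0 to 2. The 0 came without slide 1 or slide 2, and the 2 without si-control replicate 3 or slide 3.

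The pathway lists had 1 call. It was 0 with the wider margin, the methods' t-test, the series table or the median over probes, 2 with 75th-percentile scaling, dim probes left out or normexp, and 3 with the replicate block (CCND1, ERRFI1 and ETV4). Leaving out samples or slides gave 0 to 3, with 0 without si-control replicate 2, si-C1GALT1-3 replicate 1, slide 1 or slide 2, 2 without si-control replicate 1, and 3 without si-control replicate 3 or slide 3.

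Over all probes, 1538 calls became 896 with the methods' t-test, 915 with normexp and 963 without slide 1, and leaving out samples or slides gave 963 to 1781. The share of higher calls was 62.5%, against 40.2% with the region kept and 72.6% without normalization. The 49 probes with an adjusted p under 0.05 became 546 with dim probes left out and 429 with normexp. They became 2 with the methods' t-test, and 0 with no normalization, the region kept, the replicate block, the trended robust prior or outlier spots kept. None was left when any sample or slide was left out. The median log2 fold change of all probes was -0.107 with 75th-percentile scaling, against -0.0048 in the main fit. C1GALT1 passed the threshold only with dim probes left out, at the same -1.00, and ran from -1.27 to -0.74 when samples or slides were left out.

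Of 168 alternatives for the 8 members above background, 157 kept direction and side of the threshold, 7 passed it, 4 fell short and none changed direction. EGFR ran from -1.66 to -1.12, and the 4 that fell short were its own, with no normalization, without slide 1 or 2 and with the median over probes. The adjusted p of EGFR ran from 0.0408 with normexp (limma) to 0.558 without slide 1 (limma). AREG ran from -3.79 to -2.22. The replicate block changed no member's call but AREG's. Leaving out slides and counting any probe were chosen after seeing the data. The causes were not tested. Probes near background, those of EGF and ERBB4, allow no statement.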

Other observations

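EREG, AREG and BTC lie next to each other on chromosome 4, after EPGN, with no other protein-coding gene between them in RefSeq. EPGN, epigen, a further EGFR ligand, was above background on none of the 6 arrays. The log2 fold changes along this stretch were -0.98 for EREG, -2.89 for AREG and -0.52 for BTC. EGF is on the same chromosome, apart from this stretch.

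Among the other promoter windows of 250 bases, HBEGF held 5 GC boxes, TGFA 3 and ERBB4 1, EGF and ERBB2 held 1 AP-1 site each, and BTC held none of the 4 elements. A second EGFR start, further into the gene, held 2 AP-1 sites and 2 TATA boxes, with a GC content of 38.8%.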
